A study of Mus musculus with 8 samples.

Results

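PD-1+ TCF-1+ CD8 T cells are the CD8 T cells that carry the inhibitory receptor PD-1 (gene Pdcd1) together with the transcription factor TCF-1 (gene Tcf7). They were picked from single-cell libraries by 5 genes and the T cell receptor: a cell was kept when its barcode had a T cell receptor beta (TRB) row in the contig table of its own mouse, at least 1 unique molecular identifier (UMI, a counted molecule) of Cd8a or Cd8b1, none of Cd4, at least 1 of Pdcd1 and at least 1 of Tcf7. The rule found 285 such cells, 101 and 122 in the knockout mice and 39 and 23 in the control mice, of 3964 CD8 T cells, 7452 cells with a TRB row and 48214 cells in all. They are called double-positive cells here. The other CD8 T cells fall into PD-1+ TCF-1- cells (1126), PD-1- TCF-1+ cells (1485) and PD-1- TCF-1- cells (1068). Because UMIs of Pdcd1 and Tcf7 chose the cells, the levels of those 2 genes and of Cd8a, Cd8b1 and Cd4 are descriptions with no test.

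The cells come from leukocytes of liver metastases in 4 mice. The 2 knockout mice (Vav1CreTet2KO) lacked Tet2, a DNA-demethylating dioxygenase, through Vav1-Cre, which recombines floxed alleles across the blood lineages and so not in T cells alone. The 2 control mice (Tet2fl/fl) carried the floxed alleles. All 4 had Venus-AKTPM/LOH colorectal cancer cells injected into the spleen and were sampled at day 30, when live CD45+ cells were sorted after collagenase digestion. The tumours come from 1 line, and the labels used give neither the age of the mice nor the floxed exon of Tet2.

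In chronic infection and in tumours, CD8 T cells that keep both PD-1 and TCF-1 are known as progenitor or stem-like exhausted cells. They renew themselves, sit upstream of TCF-1- cells that are closer to terminal exhaustion, and give rise to the burst of effector cells after PD-1 blockade. TCF-1 works with LEF1 to hold memory and naive-type genes open, while PD-1 marks recent or repeated receptor signalling. The surface receptor Ly108 (gene Slamf6) is the usual stand-in for TCF-1 when these cells are sorted alive, and it was not part of the rule here.

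The gene expression libraries held 57190926 and 60456627 UMIs in the knockout mice and 89945864 and 91789597 in the control mice, over 10741 to 13598 cells that passed the filters. Any pair of libraries shared 272 to 303 barcodes. Of the double-positive cells, 12 had a barcode also present in another library, and 0 of the 12 had the same receptor there. Median UMIs per double-positive cell were 5066 and 4723 in the knockout mice against 9863 and 5961 in the control mice, so control mouse 1 was the deepest. The PD-1+ TCF-1- cells were shallower in every mouse, at 4197 and 4235 in the knockout mice against 4343 and 4632 in the control mice. At least 2 productive beta chains were found in 4.95% and 6.56% of double-positive knockout cells, and 5.13% and 4.35% of control ones. In PD-1+ TCF-1- cells the shares were 0.617% and 6.08% in the knockout mice, beside 0.735% and 0.987% in the control mice. A doublet score marked 10.9% and 12.3% of double-positive cells in the knockout mice, beside 23.1% and 17.4% in the control mice. A UMI of Lyz2, a macrophage gene, was found in 8.91% and 9.84% of them in the knockout mice, beside 41.0% and 47.8% in the control mice. A UMI of the B cell gene Cd79a was found in 9.90% and 9.02% of them in the knockout mice, beside 2.56% and 4.35% in the control mice. Their values are set beside the gene results.

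Slamf6 (ENSMUSG00000015314, chromosome 1, 171745057 to 171780737 on the plus strand of GRCm39) was measured as a check of the label. Levels are CPM: UMIs of a gene summed over the cells of a gate in 1 mouse, per 1000000 UMIs of the same cells. In the double-positive cells Slamf6 had 50.9 and 70.7 CPM in the knockout mice against 145 and 112 CPM in the control mice, and in the PD-1+ TCF-1- cells it had 19.4 and 35.0 CPM in the knockout mice, beside 11.6 and 17.4 in the control mice. All 4 double-positive values lay above all 4 values of the PD-1+ TCF-1- cells, though the difference missed the threshold in edgeR's quasi-likelihood test over all genes (log2 difference 1.90 ± 0.37, SE; adjusted p = 0.062). Against PD-1- TCF-1+ cells, at 70.9 and 71.3 CPM in the knockout mice, beside 81.5 and 55.6 in the control mice, the log2 difference was -0.01. A Slamf6 UMI was seen in 24.8% and 18.03% of double-positive cells in the knockout mice, beside 43.6% and 47.8% in the control mice, and in 7.35% to 14.1% of PD-1+ TCF-1- cells. B cells carry Slamf6 too, so they give no background for it.

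Each cell entered on few molecules. Exactly 1 UMI of each of Pdcd1 and Tcf7 was found in 29 and 30 of the double-positive cells in the knockout mice, beside 6 and 7 in the control mice. At least 2 of each were found in 18 and 26 in the knockout mice, beside 11 and 4 in the control mice. Just outside the rule, 1 Pdcd1 and no Tcf7 UMI was found in 130 and 129 CD8 T cells in the knockout mice, beside 35 and 83 in the control mice, and 1 Tcf7 and no Pdcd1 UMI in 171 and 178 in the knockout mice, beside 106 and 63 in the control mice. Every condition but the TRB row was met by 12 and 24 further cells in the knockout mice, beside 1 and 2 in the control mice, and every condition but the absence of Cd4 by 3 and 5 in the knockout mice, beside 2 and 0 in the control mice. B cells (at least 2 Cd79a UMIs, 1 of Ms4a1 and no TRB row) should lack both genes. A Pdcd1 UMI was found in 0.713% and 0.830% of B cells in the knockout mice, beside 0.573% and 0.351% in the control mice, and a Tcf7 UMI in 1.52% and 1.61% in the knockout mice, beside 0.763% and 0.702% in the control mice. Both were found in 0.0930% and 0.151% in the knockout mice, beside 0.191% and 0.175% in the control mice, at median depths of 3300.5 and 3105 UMIs in the knockout mice, beside 2609.5 and 2862 in the control mice. The share of CD8 T cells with both was higher than this in every mouse. The rule itself used both genes, and B cells cannot show doublets of 2 T cells, so this is no test of the gate.

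Fewer cells held both Pdcd1 and Tcf7 than the product of their shares. If the 2 genes were detected independently, the product of their shares would give 208 and 228 double-positive cells in the knockout mice, beside 94.7 and 76.3 in the control mice. The numbers observed were 101 and 122 in the knockout mice, beside 39 and 23 in the control mice. The odds ratio of detecting one gene with the other was 0.204 and 0.219 in the knockout mice against 0.144 and 0.126 in the control mice. It lay below unity in all 4 mice.

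How many CD8 T cells were double-positive was compared between genotypes first. They made up 7.38% (6.05 to 8.90, 101 of 1368) and 9.61% (8.04 to 11.4, 122 of 1270) of the CD8 T cells in the knockout mice, and 6.26% (4.49 to 8.46, 39 of 623) and 3.27% (2.09 to 4.87, 23 of 703) in the control mice. Brackets hold the 95% exact binomial interval, which covers counting error only, and the cell numbers. Both knockout values lay above both control values. The means were 8.49% ± 1.57 in knockout and 4.77% ± 2.11 in control mice (SD, n = 2 each; exact two-sided permutation p = 0.33), and 0.33 is the smallest p that 2 mice against 2 can give.

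Among PD-1+ CD8 T cells the double-positive share was 23.8% and 25.2% in the knockout mice against 22.3% and 7.03% in the control mice. Control mouse 2 was far below the other 3, which lay close together. The means were 24.5% ± 1.02 in knockout and 14.7% ± 10.8 in control mice (SD, n = 2 each; exact two-sided permutation p = 0.33). That mouse also held the largest T cell clone of the series, 219 CD8 T cells of which 4 were double-positive. With the largest clone of each mouse left out, the share of PD-1+ cells was 26.3% and 25.3% in the knockout mice against 23.2% and 11.2% in the control mice. Among TCF-1+ CD8 T cells the share was 15.1% and 20.4% in the knockout mice against 11.6% and 14.02% in the control mice, and the means were 17.7% ± 3.78 in knockout and 12.8% ± 1.73 in control mice (SD, n = 2 each; exact two-sided permutation p = 0.33). Control mouse 1 lay lowest here, and both knockout mice were above both control mice.

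Detection rises with depth. With every cell thinned to 2000 UMIs and shallower cells left out, the double-positive share of CD8 T cells was 2.43% and 3.58% in the knockout mice against 2.07% and 1.28% in the control mice, of 1236 and 1173 cells in the knockout mice, beside 532 and 625 in the control mice. The order of the 4 mice was that of the unthinned shares. With at least 2 UMIs of each gene required, the share was 1.32% and 2.05% in the knockout mice against 1.77% and 0.569% in the control mice, and control mouse 1 then lay between the knockout mice. Thinned to 1000 UMIs, only 8 and 16 cells in the knockout mice, beside 1 and 4 in the control mice, were still double-positive. A share of cells with a UMI depends on the RNA per cell as well as on the kind of cell, and the 2 cannot be told apart here.

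**Figure D1:**
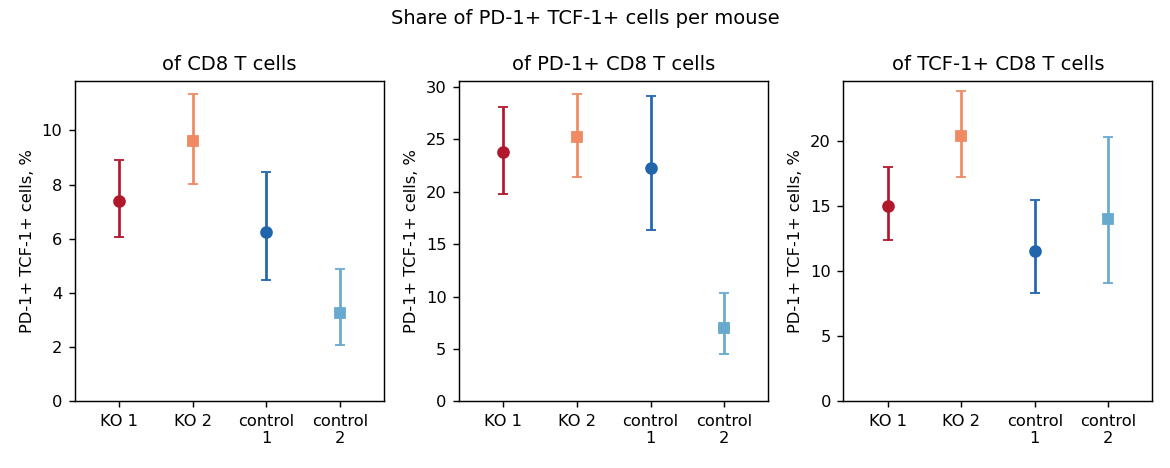
Double-positive cells as a percentage of CD8 T cells (left), of PD-1+ CD8 T cells (middle) and of TCF-1+ CD8 T cells (right) in each mouse, with 95% exact binomial intervals as bars. Both knockout mice lie above both control mice in the left panel, and control mouse 2 lies far below the other 3 in the middle panel.

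Against the PD-1+ TCF-1- cells of the same mice, the double-positive cells were higher in Sh2d1a, Myb and Dapl1 and lower in Fasl, Cst7 and Cd244a, and 36 genes in all passed the test (0.357%). Each gene was fitted over the 16 sums (4 gates in 4 mice) with the mouse as a block. Of 10082 genes tested, 16 were higher (0.159%) and 20 lower (0.198%) at an adjusted p under 0.05, and the median log2 difference over all genes was -0.012. Sh2d1a encodes SAP, the adaptor that signals for Ly108 and its relatives. It had 132 and 111 CPM in knockout and 263 and 208 CPM in control mice, against 72.5 and 74.97 CPM and 86.1 and 52.7 CPM in the PD-1+ TCF-1- cells of the same mice. The double-positive values lay above the others in all 4 mice and did not overlap with them (log2 difference 1.21 ± 0.21, adjusted p = 0.029). Myb, a factor needed for the self-renewal of stem-like exhausted cells, rose by 2.42 ± 0.44 (adjusted p = 0.015), at 15.0 to 29.4 CPM against 2.03 to 4.98 CPM. Dapl1, a gene of naive and early memory T cells, rose by 4.23 ± 0.60 (adjusted p = 0.015), at 12.01 to 68.9 CPM against 0 to 3.04 CPM, and control mouse 2 had no Dapl1 UMI in its PD-1+ TCF-1- cells. Dgka, a kinase that damps receptor signalling through diacylglycerol, rose by 0.60 ± 0.13, and the cytoskeletal adaptor Pdlim1 by 1.07 ± 0.19. The translation genes Rps20, Rpl28 and Eef1b2 rose by 0.35 each. Their calls and that of Dgka were lost whichever mouse was left out.

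Of the genes that fell, Fasl encodes a death ligand. It fell by 0.80 ± 0.17 (adjusted p = 0.048), at 153 and 172 CPM in knockout and 36.9 and 50.5 CPM in control mice, against 235 and 221 CPM and 145 and 116 CPM in the PD-1+ TCF-1- cells of the same mice. It was lower in each of the 4 mice, although the knockout double-positive values overlapped with the control values of the other gate. Cst7, which encodes the cytotoxic granule inhibitor cystatin F, fell by 0.60 ± 0.12 (adjusted p = 0.023). The receptor gene Cd244a (2B4) fell by 1.44 ± 0.25, at 7.38 to 22.5 CPM against 34.9 to 61.4 CPM. AW112010, an interferon-responsive transcript, fell by 0.59 ± 0.10 (adjusted p = 0.015), and Litaf, a lysosomal factor, by 0.90 ± 0.13 (adjusted p = 0.0033). In double-positive cells granzyme B (Gzmb) had 448 and 348 CPM in the knockout mice, beside 66.5 and 432 in the control mice. In PD-1+ TCF-1- cells it had 1391 and 1196 CPM in the knockout mice, beside 1543 and 807 in the control mice, above the double-positive value of every mouse, and it was not among the genes called.

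Neither were the exhaustion receptor Havcr2 (log2 difference -1.19 ± 0.27, adjusted p = 0.055) nor the ectoenzyme Entpd1 (-0.997 ± 0.24, adjusted p = 0.059), both of which lay lower in the double-positive cells of all 4 mice. Of the 27 tested genes of a 28-gene progenitor list, Myb alone rose and 0 fell, with a median of 0.59. Of 27 tested exhaustion genes 0 rose and Cd244a alone fell, with a median of -0.58. Of 23 tested effector genes, 0 rose and Cst7 and Fasl fell (median -0.66). Lag3 (-0.77), Tox (-0.14) and Id3 (0.44) did not pass the test. These calls rest on few mice. Of the 24 named genes called, AW112010 and Litaf alone kept the call whichever mouse was left out, and the count of called genes fell to 15 without control mouse 1 and to 9 without control mouse 2. With no mouse block it was 2. DESeq2 called 66 genes higher and 49 lower, and these 115 held 21 of the 36 with the same sign. Without doublets 31 genes were called, of which 16 were among the 36. The part of doublets in this comparison was not tested.

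Set against the PD-1- TCF-1+ cells of the same mice, the double-positive cells differed in many more genes. Of the 10082 genes, 1053 passed the test (10.4%), of which 521 were higher (5.17%) and 532 lower (5.28%). Ctla4, Tigit, Cd160 and Cxcr6 were among the higher genes, and Lef1 and Ccr7 among the lower. Lef1, the partner of TCF-1, had 79.3 and 70.7 CPM in knockout and 91.1 and 67.3 CPM in control mice, against 368 and 340.3 CPM and 358 and 297 CPM in the PD-1- TCF-1+ cells of the same mice. The double-positive values lay below all values of the other gate, with a log2 difference of -2.44 ± 0.28 (adjusted p = 0.00030). Ccr7, the chemokine receptor that guides T cells into lymph nodes, fell by 2.19 ± 0.33, at 50.5 to 263 CPM against 582 to 859 CPM. Igfbp4, a marker of naive T cells, fell by 3.98 ± 0.56, and the quiescence factors Klf2 and Klf3 fell by 1.95 ± 0.24 and 1.92 ± 0.24. Of the 15 tested genes of the naive and central memory list, 13 fell and 0 rose (median -1.87, over all genes -0.017). Of the progenitor list, 9 of 27 fell and 5 rose. The falls include Lef1, Ccr7, Klf2, Satb1 and S1pr1 (Satb1 and S1pr1 each lost without knockout mouse 1, without knockout mouse 2 or without control mouse 1), which that list shares with the naive list.

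Among inhibitory receptors, Lag3 rose by 2.51 ± 0.62 (adjusted p = 0.031), with 58.4 and 100.1 CPM in knockout and 64.0 and 208 CPM in control mice, against 12.5 and 19.7 CPM and 7.61 and 7.58 CPM in the PD-1- TCF-1+ cells of the same mice. It was higher in every mouse, but the call was lost without knockout mouse 1 or knockout mouse 2 or control mouse 2. Ctla4 rose by 1.89 ± 0.32 (adjusted p = 0.0044), at 135 to 296 CPM against 18.5 to 71.6 CPM. Tigit, a receptor that competes for co-stimulatory ligands, rose by 1.78 ± 0.27, at 150.2 to 226 CPM against 32.6 to 52.8 CPM, and Cd160 by 1.67 ± 0.23. These 3 kept their calls whichever mouse was left out. Tox, the factor that installs the exhausted state, rose by 1.02 ± 0.24 at 73.3 to 199 CPM against 43.0 to 55.2 CPM, a call lost without knockout mouse 2 or control mouse 2. Of 27 tested exhaustion genes 13 rose and 0 fell (median 0.94). The co-stimulatory receptors Icos and Cd28 rose by 1.22 ± 0.15 and 0.54 ± 0.10, and of the 15 costimulation genes 8 rose and 1, Tnfsf8, fell.

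Cd200 rose by 2.51 ± 0.41 and Tnfrsf4 (OX40) by 4.07 ± 0.54; both belong to the progenitor list, and both were highest in the control mice, with 2.99 and 40.0 CPM of Tnfrsf4 in the knockout mice against 81.2 and 179 CPM in the control mice.

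The liver-residency receptor Cxcr6 rose by 1.61 ± 0.35, at 101 to 452 CPM against 31.6 to 120.5 CPM, a call lost without knockout mouse 1 or knockout mouse 2 or control mouse 2. The integrin subunits Itga4 and Itgb1 rose by 0.87 ± 0.11 and 1.10 ± 0.16, and S100a4 and Lgals1, genes of antigen-experienced T cells, by 1.53 ± 0.09 and 1.49 ± 0.13. Of 26 proliferation genes 6 rose, among them the replication helicase subunits Mcm3, Mcm5 and Mcm6 (Mcm5 and Mcm6 each lost without control mouse 1 or control mouse 2, and Mcm5 also without knockout mouse 1), and 0 fell. Of 19 glycolysis and hypoxia genes 8 rose, Tpi1 (0.82 ± 0.13) and Gapdh (0.55 ± 0.10) among them, and 0 fell. Of the 99 named genes called, 48 kept the call whichever mouse was left out. Set beside 1053 calls in all, the fit without knockout mouse 1 made 660, of which 590 were among the 1053 with the same sign. Without knockout mouse 2 it made 630 (577 of them shared), and without control mouse 2 671 (626 shared).

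Against all other CD8 T cells pooled, 225 of 10594 genes passed the test (2.12%), 56 of them higher (0.529%) and 169 lower (1.6%). The proliferation list held 8 of the higher genes. Pclaf, which loads onto the replication clamp, had 119.8 and 158 CPM in knockout and 138 and 342 CPM in control mice, against 65.03 and 42.4 CPM and 80.8 and 122 CPM in the other CD8 T cells of the same mice. It was higher in every mouse (log2 difference 1.13 ± 0.18, adjusted p = 0.0056; call lost without control mouse 2). Ezh2, the histone methyltransferase of the Polycomb complex, rose by 0.88 ± 0.15, Dut, which keeps uracil out of DNA, by 0.67 ± 0.12, and Hmgb2, a chromatin protein needed by stem-like exhausted cells, by 0.68 ± 0.09. Of 26 proliferation genes 8 rose and 0 fell (median 0.60, over all genes -0.026). Among the 8, Stmn1, Rrm2, H2az1 and Mcm5 also lost the call in some fits that left out a mouse. Against the PD-1+ TCF-1- cells alone, 0 of the 26 rose and 0 fell (median -0.022), so these genes did not set the 2 PD-1+ gates apart.

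From the progenitor list Cd200 (1.80 ± 0.29), Itgb1 (0.87 ± 0.13), Cd28 (0.49 ± 0.11, lost without knockout mouse 1 or knockout mouse 2) and Myb (1.34 ± 0.32, lost without knockout mouse 2) rose, while Lef1 (-1.49 ± 0.14), Satb1, Ccr7, Klf2 and Bach2 were among those that fell. The cytolytic pore gene Prf1 fell by 1.21 ± 0.25, at 5.61 to 42.7 CPM against 58.5 to 62.4 CPM. Genes of other lineages were called lower too, among them Jchain of plasma cells and C1qa of macrophages. Jchain had 7.48 CPM in the double-positive cells of knockout mouse 1 and no UMI in those of the other 3 mice, against 174 and 295 CPM in the other CD8 T cells of the knockout mice. In double-positive cells C1qa was at 0 and 2.67 CPM in the knockout mice, beside 36.9 and 0 in the control mice. In the other CD8 T cells it was at 22.5 and 15.1 CPM in the knockout mice, beside 169 and 167 in the control mice. The part of such RNA in the comparison was not tested. Of 47 named genes called, 26 kept the call whichever mouse was left out. With no mouse block the count of called genes was 5.

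**Figure D2:**
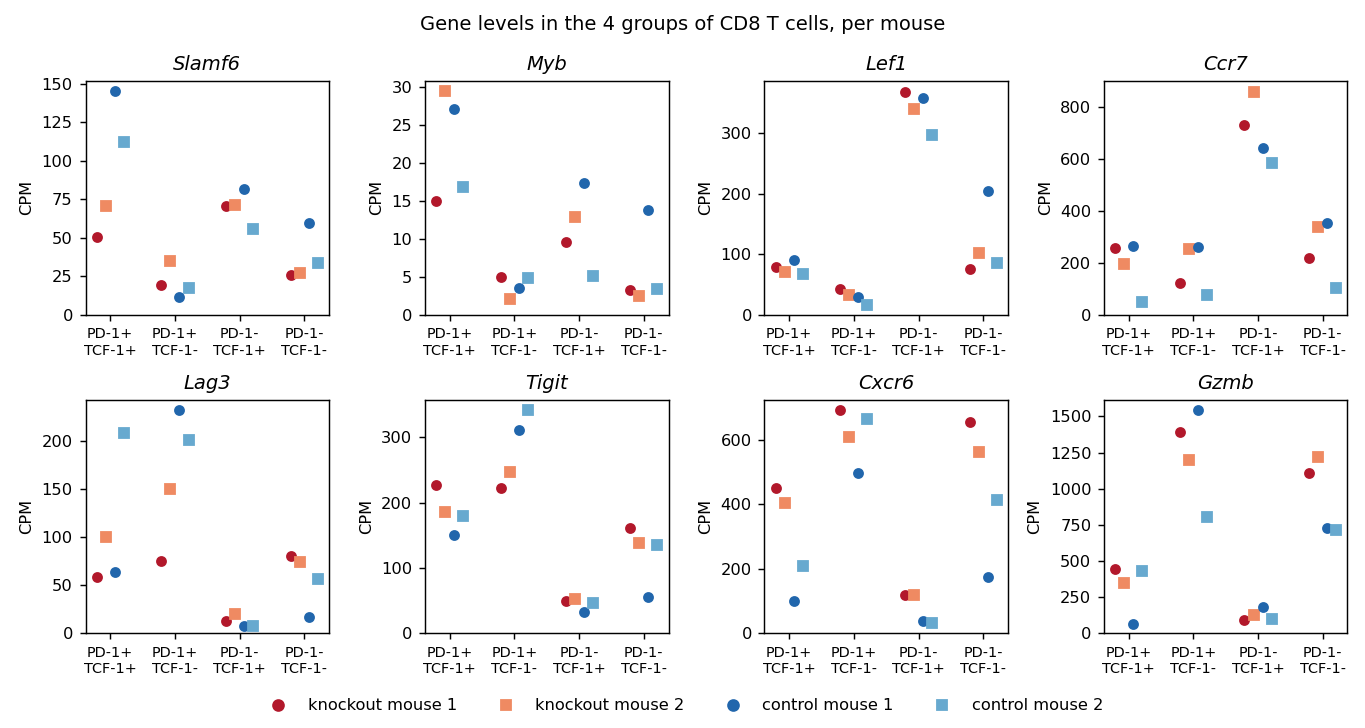
Level of 8 genes (CPM, linear axes from 0) in the double-positive cells and the other 3 gates of CD8 T cells, 1 point per mouse. Slamf6 is low in the PD-1+ TCF-1- cells of all 4 mice, Lef1 and Ccr7 are highest in PD-1- TCF-1+ cells, and Tigit is high in both PD-1+ gates.

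The genotype was the second comparison: how the double-positive cells of the knockout mice differed from those of the control mice. Tet2 itself (ENSMUSG00000040943, chromosome 3, 133169436 to 133250900 on the minus strand of GRCm39) was measured first. It had 21.0 and 22.7 CPM in the knockout mice against 36.9 and 28.0 CPM in the control mice. The knockout values lay below the control values, but the difference missed the threshold (log2 difference -0.56 ± 0.44, adjusted p = 0.56). A Tet2 UMI was seen in 10.9% and 11.5% of double-positive cells in the knockout mice, beside 30.8% and 17.4% in the control mice. Gene-level UMIs do not show which exons they come from, so transcripts of a deleted allele can still be counted. In the 4 sums of double-positive cells, 6229 genes were tested. Of these, 287 passed the test (4.61%). By direction, 143 were higher in the knockout mice (2.3%) and 144 lower (2.31%), and DESeq2 called 64 higher and 99 lower. In every one of the 287 the 2 knockout values lay on 1 side of the 2 control values. With 2 mice per group, picking genes by the test makes this nearly certain, so it adds no support. A p here rests on the spread between 2 mice of a group, which edgeR draws towards a spread shared over all genes. With so few mice it leans on that shared spread.

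RNA of other lineages moved with the genotype and is given first. The 14 genes of a macrophage list came, in double-positive cells, to 385 and 582 CPM in the knockout mice, beside 4638 and 5149 in the control mice. Measured against their level in the macrophages of the same library, the defining genes stood at 1.25% and 1.32% in the knockout mice, beside 17.8% and 18.7% in the control mice. The 13 genes of a B cell list came to 783 and 889 CPM in the knockout mice, beside 288 and 381 in the control mice, and against their level in B cells the defining genes stood at 6.40% and 5.70% in the knockout mice, beside 2.22% and 2.54% in the control mice. Lyz2 alone fell by 4.12 ± 0.19, at 183 and 169.5 CPM in the knockout mice against 2878 and 3589.6 CPM in the control mice, and 7 of the 8 tested macrophage genes fell. Of the B cell genes 2 of the 11 tested B cell genes, Cd79a and Ebf1, rose.

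From these shares, the level that macrophage and B cell RNA would give was computed for each gene, and a gene was marked where that came to at least 20% of the higher group's level. The mark fell on 112 of the 144 lower genes, on 5 of the 143 higher genes and on 1147 of the 6229 tested. In a fit to cells with no Lyz2 or Cd79a UMI, 107 genes were higher and 44 lower. Otherwise the part of this RNA in the results was not tested. Erythroid genes (5 of 5) were at 0 in double-positive cells of all 4 mice. Neutrophil genes came to 2880.0 and 131 CPM in the knockout mice, beside 687 and 623 in the control mice, with knockout mouse 1 far above the other 3. NK cell genes came to 869.7 and 758 CPM in the knockout mice, beside 1563 and 1436 in the control mice, dendritic cell genes to 305 and 212 CPM in the knockout mice, beside 303 and 72.9 in the control mice, and hepatocyte genes to 28.4 and 13.3 CPM in the knockout mice, beside 81.2 and 314 in the control mice, with 7 of the 12 hepatocyte genes at 0. Genes of gamma-delta T cells came to 74.8 and 82.8 CPM in the knockout mice, beside 14.8 and 44.9 in the control mice, and genes of CD4 and regulatory T cells to 603 and 661 CPM in the knockout mice, beside 404 and 505 in the control mice, with Cd4 and Il1rl1 at 0.

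**Figure D3:**
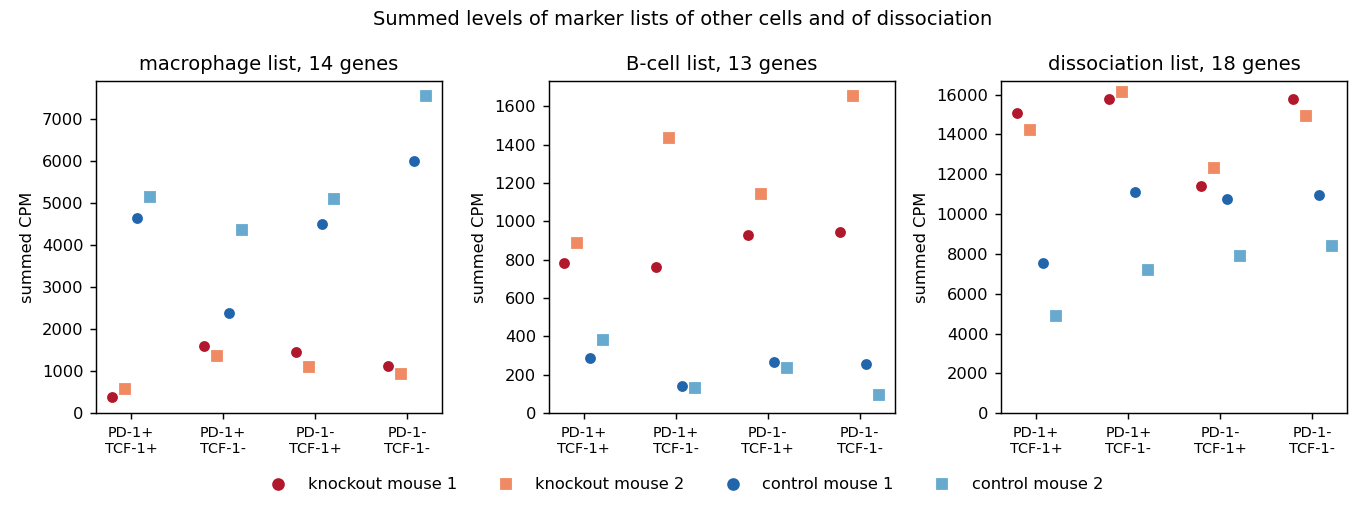
Summed level (CPM) of a macrophage list (left), a B cell list (middle) and a list of dissociation-sensitive genes (right) in the 4 gates, 1 point per mouse. In double-positive cells, at the left of each panel, macrophage RNA is high in the control mice and B cell and dissociation RNA in the knockout mice.

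Ccl5, Klrc1 and Ifng led the effector genes that rose, 10 of 20 tested. Ccl5 (ENSMUSG00000035042, chromosome 11, 83416602 to 83425942 on the minus strand of GRCm39), a chemokine made by memory and effector CD8 T cells, had 11999 and 9405 CPM in the knockout mice against 2011 and 2928 CPM in the control mice. The knockout cells were far above the control cells, with no overlap (log2 difference 2.20 ± 0.18, adjusted p = 7.9e-05). In cells with no Lyz2 or Cd79a UMI the difference was 1.98 and missed the threshold (adjusted p = 0.26).

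Klrc1 (ENSMUSG00000030167, chromosome 6, 129642978 to 129655936 on the minus strand of GRCm39), which encodes the inhibitory NK receptor NKG2A, had 485 and 493 CPM in the knockout mice against 108 and 44.9 CPM in the control mice and rose by 2.61 ± 0.30 (adjusted p = 0.00042). The activating receptor Klrk1 (NKG2D) rose by 2.69 ± 0.42, at 213 and 214 against 49.2 and 5.61 CPM in knockout against control mice. Ifng, the interferon of effector T cells, had 692 and 374 CPM in the knockout mice against 113 and 78.5 CPM in the control mice and rose by 2.48 ± 0.32 (adjusted p = 0.0013), a call lost without control mouse 1 or control mouse 2. The chemokine genes Ccl3 and Ccl4, which draw in other immune cells, rose by 2.10 ± 0.33 and 2.36 ± 0.36, and Fasl by 2.03 ± 0.29. Tbx21, which encodes the effector factor T-bet, rose by 1.29 ± 0.25, a call lost without knockout mouse 2. Klrd1, the partner of NKG2A at the surface, and the cytokine gene Tnf rose too. Gzmk, a granzyme gene of memory-type CD8 T cells, fell by 1.69 ± 0.41 (lost without knockout mouse 2 or control mouse 1). Over the list 1 gene, Gzmk, fell, with a median log2 difference of 1.25 beside 0.007 over all genes. Without doublets 9 rose, among cells with no Lyz2 or Cd79a UMI 8, and among cells of expanded clones 6. Gzmb (448 and 348 CPM in the knockout mice, beside 66.5 and 432 in the control mice) and Prf1 (32.9 and 42.7 CPM in the knockout mice, beside 14.8 and 5.61 in the control mice) were not called.

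Of 18 genes that respond to tissue dissociation, most of them heat-shock or early-response genes, 12 rose and 1, Ier3, fell (median 1.39). Hspa1a, an inducible HSP70 chaperone, had 1218 and 1034 CPM in the knockout mice against 239 and 151 CPM in the control mice, a log2 difference of 2.55 ± 0.23 (adjusted p = 9.5e-05). Its co-chaperone gene Dnajb1 rose by 3.08 ± 0.37, Hspa1b by 3.09 ± 0.28 and Hsph1 by 2.23 ± 0.28. The list came to 15060 and 14234 CPM in the knockout mice, beside 7527 and 4874 in the control mice. In PD-1+ TCF-1- cells it came to 15801 and 16121 CPM in the knockout mice, beside 11097 and 7209.6 in the control mice, again with both knockout mice above both control mice. The orphan nuclear receptor gene Nr4a1, switched on by receptor signalling, had 1144 and 953 CPM in the knockout mice against 374 and 252 CPM in the control mice and rose by 1.78 ± 0.22. Its relatives Nr4a2 and Nr4a3 rose by 1.42 ± 0.21 and 2.16 ± 0.41. Junb, a subunit of the AP-1 factor, rose by 1.44 ± 0.18, and the phosphatase genes Dusp2 and Dusp5, which switch off MAP kinases, by 1.65 ± 0.19 and 1.68 ± 0.24. Of 21 tested genes of the receptor-signal and early-response list, 9 rose and 0 fell (median 1.03). That list and the dissociation list share Ier2, Egr1, Fos, Jun and Dusp1, of which Ier2 and Egr1 rose, and 12 dissociation genes were called higher without doublets as well. The part of tissue handling in these differences was not tested.

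Il7r (ENSMUSG00000003882, chromosome 15, 9505874 to 9530262 on the minus strand of GRCm39) encodes the receptor for interleukin-7, which keeps memory T cells alive. It had 726 and 517 CPM in the knockout mice against 108 and 101 CPM in the control mice. Both knockout mice were several times above both control mice (log2 difference 2.62 ± 0.25, adjusted p = 0.00011), and the call held in each of the 16 alternatives in which it could be tested. It was the only one of 24 tested progenitor genes to pass the test in either direction, and the list's median was 0.03. Other members of that list had values on the opposite side without passing. Slamf6 differed by -1.04 ± 0.28 (adjusted p = 0.056), and Xcl1, the chemokine that calls cross-presenting dendritic cells, had 410.1 and 460.5 CPM in the knockout mice against 667 and 1307 CPM in the control mice, a difference of -1.08 ± 0.28 (adjusted p = 0.060). Lef1 differed by -0.07 ± 0.28 and did not pass. Without doublets the median of the 23 tested progenitor genes was -0.21, and Il7r rose. Slamf6 passed there, at -1.52 (adjusted p = 0.015), as did Cd200 (-1.90), Tnfrsf4 (-3.29) and Ikzf2, all lower. Among cells with no Lyz2 or Cd79a UMI Slamf6 did not (adjusted p = 0.24) and Xcl1 did (-1.56, adjusted p = 0.0084). Of 25 tested exhaustion genes 5 rose (Id2, Ctla4 and the Nr4a1, Nr4a2 and Nr4a3 that the early-response list also holds) and Gzmk fell, with a median of 0.33. Id2, a factor that opposes the progenitor state, had 689 and 751 CPM in the knockout mice against 261 and 308 CPM in the control mice and rose by 1.43 ± 0.20. Ctla4 rose by 1.06 ± 0.22, a call lost without knockout mouse 2. Tox (-0.88 ± 0.27, adjusted p = 0.091), Lag3 (-0.50), Tigit (0.41) and Havcr2 (0.19) did not pass.

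Of 18 tested residency genes 3 rose, Cxcr6, Rgs1 and Itga1, and 0 fell. Cxcr6 had 452 and 403 CPM in the knockout mice against 101 and 208 CPM in the control mice and rose by 1.63 ± 0.29. Rgs1, a brake on chemokine receptor signals in resident T cells, rose by 1.34 ± 0.20, and Itga1, the collagen-binding integrin CD49a, by 1.99 ± 0.44 (lost without control mouse 1). The co-stimulator Icos rose by 1.31 ± 0.25 at 231 and 279 against 123 and 84.1 CPM in knockout against control mice. Cish, a feedback inhibitor of cytokine and receptor signals, rose by 2.26 ± 0.31 at 160.2 and 143 against 27.1 and 44.9 CPM. Of 27 tested type I interferon genes 4 rose (Ifi206, Ifi208, Isg15 and Slfn8, the last lost without knockout mouse 2) and 0 fell. Without doublets 9 of 24 tested rose, in cells with no Lyz2 or Cd79a UMI 3 of 23, and in expanded clones 3 of 21. Of 18 tested interferon-gamma genes Cxcl10 and Gbp6 rose, Cxcl10 lost without knockout mouse 2 and Gbp6 whichever mouse was left out. Of 25 proliferation genes H2az1 alone fell (lost without knockout mouse 1) and 0 rose, with a median of -0.33. Without doublets Mcm5, Mcm6 and H2az1 fell of 24 tested (median -1.01), and in expanded clones H2az1 and Hmgb2 of 19 (median -0.90). In cells with no Lyz2 or Cd79a UMI H2az1 alone fell of 22 (median -0.34). Of 18 tested cytokine receptor genes Il7r and Ifngr1 rose and Il6ra fell, with Ifngr1 lost without knockout mouse 1 and Il6ra without control mouse 2. Of 14 naive and central memory genes Il7r and Ly6c2 rose and Igfbp4 fell, with Ly6c2 lost without knockout mouse 2 and Igfbp4 in each of the 3 such fits that tested it. Of 28 tested factors around TCF-1, Id2, Tbx21 and Hic1 rose, with Hic1 lost without knockout mouse 1 or control mouse 1. Over the genotype comparison 51 of 81 named genes called kept the call whichever mouse was left out. By edgeR's test 0 of 11 tested genes that write, read or erase DNA methylation passed, beside 287 of all 6229 genes (4.61%). Without doublets 1 of 9 tested, Uhrf1, was called lower. Of 16 tested genes of an oxidative phosphorylation list 0 passed (median -0.36). Sdhc and Ndufa11 are not on that list and were called lower.

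Of the lower genes, 32 did not carry the mark for other lineages, and the 12 with the largest change among them were named after their values were seen. Ccr8, a chemokine receptor best known from regulatory and tissue T cells, had 10.48 and 21.4 CPM in the knockout mice against 66.5 and 129 CPM in the control mice and fell by 2.38 ± 0.45 (adjusted p = 0.0088). Tbc1d4, a regulator of glucose transporter traffic, had 15.0 and 25.4 CPM in the knockout mice against 66.5 and 129 CPM in the control mice and fell by 2.05 ± 0.42. Both kept the call whichever mouse was left out. So did the proteasome subunit Psma4 (-1.28), the dUTPase Dut (-1.16) and the actin-binding Cotl1 (-1.11). The others were Gzmk, Tfdp1, Impa2, Fam162a, Sdhc, Ndufa11 and Hmgn2, which each lost the call without at least 1 mouse. Of 18 tested glycolysis and hypoxia genes 6 fell and 0 rose (median -0.78). Ldha, which makes lactate, had 525 and 679 CPM in the knockout mice against 1253 and 1111 CPM in the control mice and fell by 0.90 ± 0.19 (lost without knockout mouse 1). Tpi1 fell by 1.64 ± 0.24 and Pgk1 by 1.09 ± 0.20 (Pgk1 lost without knockout mouse 1). By the reckoning above 13 of the 18 could draw at least 20% of their level from other lineages. Without doublets 3 fell, as among cells with no Lyz2 or Cd79a UMI.

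**Figure D4:**
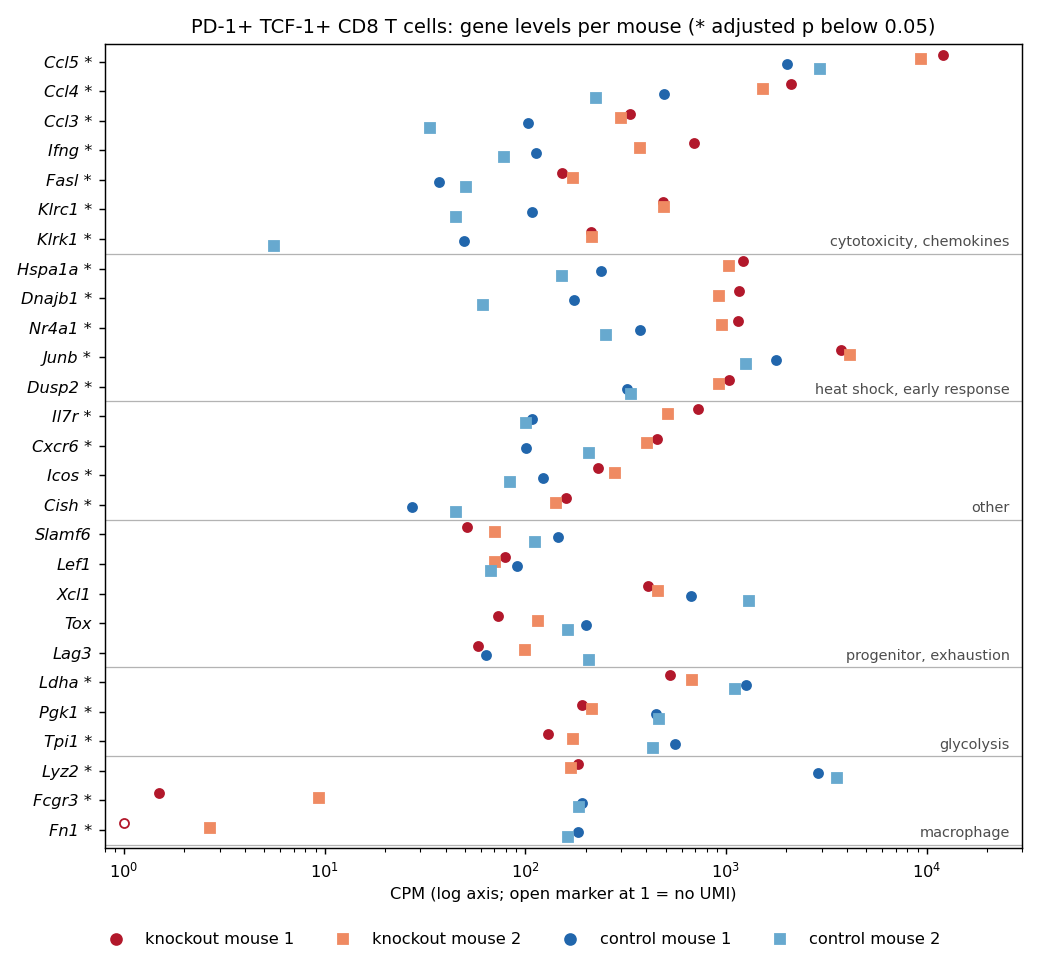
Levels (CPM, log axis) of named genes in the double-positive cells of each mouse, grouped in blocks, with an asterisk at genes past the threshold. Cytotoxicity, chemokine and heat-shock genes lie to the right in both knockout mice, macrophage genes in both control mice. The genes in the progenitor and exhaustion block did not pass the test. Il7r of the progenitor list and Nr4a1 of the exhaustion list did, and stand in other blocks.

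Whether the genotypes differed in the double-positive cells more than in the other CD8 T cells was tested as an interaction. Of 10594 genes, 51 passed (0.481%). The knockout over control log2 difference was higher in double-positive cells for 40 of these (0.378%) and lower, or more negative, for 11 (0.104%). Ccl5 was at 10845 and 8607 CPM in the knockout mice, beside 4462 and 7898 in the control mice in the other CD8 T cells, and its genotype difference was higher in double-positive cells by 1.48 ± 0.10 (adjusted p = 5e-08) on the log2 scale. That call and the one for Lyz2, at -2.18 ± 0.13 (adjusted p = 4.8e-08), alone held whichever mouse was left out, among 24 named genes called. Without the largest clone of each mouse the Ccl5 term was 1.63 and missed the threshold (adjusted p = 0.72). The Lyz2 term missed it there too (-1.76, adjusted p = 0.91), and also without doublets (-0.74, adjusted p = 0.97). Lyz2 was at 792 and 599 CPM in the knockout mice, beside 2224 and 3227 in the control mice in the other CD8 T cells.

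Dnajb1 differed by 1.98 ± 0.19 (adjusted p = 1.5e-05), with 1046 and 1047 CPM in the knockout mice, beside 615 and 305 in the control mice in the other CD8 T cells, and Hspa1a by 1.48 ± 0.19 (adjusted p = 0.00037). For Rgs1 the term was 1.21 ± 0.17 (adjusted p = 0.00084), and the other CD8 T cells showed 672 and 781 CPM in the knockout mice, beside 638 and 726 in the control mice, which overlap. Id2 gave 1.19 ± 0.17 (adjusted p = 0.0016), again with overlapping values in the other cells, at 569 and 479 CPM in the knockout mice, beside 407 and 504 in the control mice. Il7r gave 0.96 ± 0.20 (adjusted p = 0.037), and the other cells had 563 and 436 CPM in the knockout mice, beside 177 and 135 in the control mice. Of 18 dissociation genes 9 had a higher log2 difference in double-positive cells, of 23 tested early-response genes 7, of 23 tested effector genes 3 and of 28 progenitor genes 1 (Il7r), and in these 4 lists 0 had a lower one. The control sums behind these terms hold 39 and 23 double-positive cells. Without control mouse 1 the count of 51 went to 12 and without control mouse 2 to 3.

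T cells that descend from 1 parent cell carry the same receptor, and cells with the same beta chain were counted as 1 clone. A clone is defined by the V and J segments and the CDR3 nucleotides of the productive beta chain, within a mouse, and clones of 2 or more CD8 T cells are called expanded. Double-positive cells fell into 62 and 83 clones in the knockout mice, beside 38 and 19 in the control mice. Counted once over the 4 mice, the 3964 CD8 T cells carried 2123 different beta chains, 200 of them in a double-positive cell. The share of double-positive cells in clones of 2 or more CD8 T cells was 86.1% (77.8 to 92.2, 87 of 101) and 74.6% (65.9 to 82.0, 91 of 122) in the knockout mice, and 28.2% (15.0 to 44.9, 11 of 39) and 60.9% (38.5 to 80.3, 14 of 23) in the control mice. Both knockout mice were above both control mice, and control mouse 1 was lowest. The means were 80.4% ± 8.17 in knockout and 44.5% ± 23.1 in control mice (SD, n = 2 each; exact two-sided permutation p = 0.33). More CD8 T cells were sampled in the knockout mice, and the shares expected at 623 CD8 T cells per mouse were 80.5% and 69.3% in the knockout mice against 28.2% and 60.2% in the control mice.

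In the PD-1+ TCF-1- cells the share in such clones was 95.1% and 92.0% in the knockout mice against 62.5% and 86.8% in the control mice, higher in every mouse. In PD-1- TCF-1+ cells it was 23.0% and 19.1% in the knockout mice against 2.68% and 4.26% in the control mice, lower in every mouse. In PD-1- TCF-1- cells it was 83.6% and 71.3% in the knockout mice against 18.7% and 54.9% in the control mice. That was below the double-positive share in every mouse, but closer to it than either other gate. Over the 4 mice, double-positive cells minus all other CD8 T cells came to 13.7 ± 11.1 percentage points (SD, n = 4), higher in 4 of 4 mice, with an exact sign permutation p of 0.125, the smallest that 4 mice allow.

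The clone of a double-positive cell also held PD-1+ TCF-1- cells for 72.3% and 69.7% of the double-positive cells in the knockout mice, beside 12.8% and 52.2% in the control mice. The means were 71.0% ± 1.84 in knockout and 32.5% ± 27.8 in control mice (SD, n = 2 each; exact two-sided permutation p = 0.33). The shares expected at 136 PD-1+ TCF-1- cells per mouse were 62.4% and 51.1% in the knockout mice against 12.8% and 43.1% in the control mice. The probability that any 2 double-positive cells share a clone was 1.27% and 0.975% in the knockout mice against 0.135% and 2.77% in the control mice. Control mouse 2 was highest and control mouse 1 lowest, so the genotypes overlapped (exact two-sided permutation p = 1.0).

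**Figure D5:**
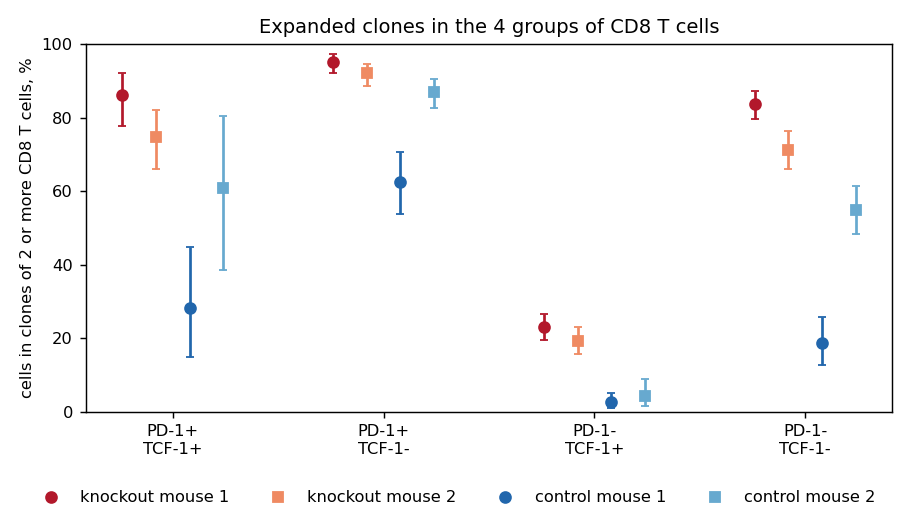
Percentage of cells in clones of 2 or more CD8 T cells in the 4 gates, 1 point per mouse with its 95% exact binomial interval. In every mouse the double-positive cells lie between the PD-1- TCF-1+ cells, which are mostly single, and the PD-1+ TCF-1- cells, which are mostly expanded.

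The clones with the most double-positive cells show how they spread over the gates. The CDR3 of the beta chain (chromosome 6) is given for the leading clone of each mouse, 5′ to 3′, with capitals for the bases between the start shared by at least 20% of CDR3s of the same V segment and the end shared by at least 20% of those with the same J segment, where joining makes each receptor distinct.
Knockout mouse 1, TRBV5 TRBJ1-3: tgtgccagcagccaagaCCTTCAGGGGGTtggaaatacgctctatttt
Knockout mouse 2, TRBV17 TRBJ1-4: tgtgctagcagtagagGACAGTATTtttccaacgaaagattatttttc
Control mouse 1, TRBV13-1 TRBJ2-5: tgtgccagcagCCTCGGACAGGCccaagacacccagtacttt
Control mouse 2, TRBV12-2 or TRBV13-2 TRBJ2-5: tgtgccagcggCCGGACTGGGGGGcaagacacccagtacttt

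In the clone of knockout mouse 1, 5 of its 42 CD8 T cells were double-positive, 14 PD-1+ TCF-1-, 7 PD-1- TCF-1+ and 16 PD-1- TCF-1-. Its cells carried 1 alpha chain, TRAV16N with TRAJ39, in 40 of the 40 cells with an alpha chain. In that of knockout mouse 2, 6 of its 34 CD8 T cells were double-positive, 20 PD-1+ TCF-1-, 1 PD-1- TCF-1+ and 7 PD-1- TCF-1-. Both clones held cells of all 4 gates. In the clone of control mouse 1 both cells were double-positive, and no other clone of that mouse held more than 1 double-positive cell. In control mouse 2, 4 of its 219 CD8 T cells were double-positive, 154 PD-1+ TCF-1-, 1 PD-1- TCF-1+ and 60 PD-1- TCF-1-. There the double-positive cells were a small minority of a clone made up mainly of PD-1+ TCF-1- cells.

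Of the 2123 beta chains 9 occurred with the same nucleotides in more than 1 mouse, and 9 double-positive cells carried a beta chain of that kind. One occurred in all 4 mice, and a pair of TRBV19 chains occurred in both knockout mice.
All 4 mice, TRBV3 TRBJ1-3: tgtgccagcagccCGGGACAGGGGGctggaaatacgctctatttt
Both knockout mice, TRBV19 TRBJ1-1, first: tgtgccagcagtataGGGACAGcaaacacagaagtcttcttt
Both knockout mice, TRBV19 TRBJ1-1, second: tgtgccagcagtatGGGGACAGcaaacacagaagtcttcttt

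The first held 4 and 8 CD8 T cells in the knockout mice and 4 and 1 in the control mice, of which 1 and 2 in the knockout mice and 0 and 0 in the control mice were double-positive. In both knockout mice it was paired with the same alpha chain (TRAV7N-4 with TRAJ11, chromosome 14), whose CDR3 reads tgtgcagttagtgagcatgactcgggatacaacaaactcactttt, with no base between the shared ends. In the control mice the alpha chains were others (TRAV12-2 and TRAV6D-6). The first TRBV19 chain was found in 6 and 5 cells of knockout mice 1 and 2, with 1 and 0 double-positive, and the second in 8 and 4 cells, with 2 and 1 double-positive. The alpha chains of these had different CDR3s in the 2 mice.

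Double-positive cells of expanded clones were set beside those whose receptor was seen once, as a description with no test. The expanded cells numbered 87 and 91 in the knockout mice, beside 11 and 14 in the control mice, and the singles 14 and 31 in the knockout mice, beside 28 and 9 in the control mice, so some levels rest on 9 to 14 cells. Ccl5 was at 13558 and 11662 CPM in knockout and 3373 and 4106 CPM in control mice in expanded clones, and 4551 and 5289 CPM and 1574 and 889 CPM among singles. It was higher in expanded cells in each of the 4 mice, and within each kind both knockout mice were above both control mice. Il7r was at 802 and 639 CPM in knockout and 40.5 and 106 CPM in control mice in expanded clones, and 363 and 294 CPM and 130.1 and 91.9 CPM among singles. Its level was higher in expanded cells in the knockout mice and in control mouse 2, by little in that mouse, and both knockout mice were above both control mice in either kind. Cxcr6 was at 518 and 508 CPM in knockout and 152 and 274 CPM in control mice in expanded clones, and 138 and 211 CPM and 84.6 and 91.9 CPM among singles, higher in expanded cells in all 4 mice.

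Slamf6 was at 32.6 and 53.7 CPM in knockout and 81.0 and 79.6 CPM in control mice in expanded clones, and 138 and 102 CPM and 166 and 169 CPM among singles, lower in expanded cells in all 4. Lef1 was at 48.9 and 39.3 CPM in knockout and 122 and 44.2 CPM in control mice in expanded clones, and 225 and 128 CPM and 81.3 and 107 CPM among singles, lower in expanded cells in 3 of the 4 mice and not in control mouse 1. Hspa1a was at 1416 and 1279 CPM in knockout and 142 and 177 CPM in control mice in expanded clones, and 277 and 588 CPM and 269.9 and 107 CPM among singles. In expanded cells both knockout mice were far above both control mice, and among singles knockout mouse 1 and control mouse 1 were nearly level.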

How the data were processed

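Per the submitters' processing notes, the authors used Cell Ranger 8.0.1 with GRCm39, Seurat 5.0.1 and R 4.4.1; the annotation release and settings are not given in the sources used here. The deposited gene matrices are UMI counts, 1 for each gene in each barcode, and the deposited contig tables hold reads and UMI counts per T cell receptor contig, with barcodes already called as cells. Sequencing was from the 5′ end, in 4 gene and 4 receptor libraries, with a target of 10000 cells per library. Here, barcodes passed with no fewer than 200 genes and no more than 10% of UMIs from mitochondria, and doublets were kept and scored with Scrublet in scanpy 1.11.5, marking the highest 0.8% per 1000 cells. UMI counts were summed per mouse and gate. Levels in CPM are those sums per 1000000 UMIs of the same cells, with no further scaling.

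Differences came from edgeR 4.0.16 (quasi-likelihood, robust, filterByExpr, TMM factors, with limma 3.58.1 and R 4.3.3) and were called at a Benjamini-Hochberg adjusted p under 0.05. Each SE was computed from that test, as the absolute log2 difference over the square root of the F statistic. The comparisons of gates had the mouse as a block, because the gates come from the same animals; the genotype fit had none, with 1 sum per mouse. Values for single mice were tested by exact two-sided permutation over mice (Python 3.11.15, numpy 2.4.6, scipy 1.17.1). DESeq2 1.42.0, RLE factors, other filters on genes and cells, thinning, and leaving out each mouse, doublets or the largest clones were alternatives. Genes were named by size among called genes with at least 50 CPM that lay on 1 side in all mice, at most 12 per direction; progenitor and exhaustion genes could be named in any case, as could called members of other lists. Receptor segment genes were not named. The genotype fit and the comparisons of gates were tried on simulated counts with a fixed spread and no mouse effect. The interaction fit was not. The members, gene lists and tests were chosen with earlier results of these data known. Gene positions are from the GENCODE annotation of GRCm39. CDR3 sequences are those of the deposited contigs.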

Additional observations from a re-analysis of the deposited data

Results flagged for a closer look

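Genes whose knockout over control difference was itself different in double-positive cells and in other CD8 T cells, by the interaction term of edgeR's quasi-likelihood test (log2, adjusted p under 0.05), are given here with no explanation. Among effector genes the term was 1.48 for Ccl5, 2.35 for Ccl3 and 1.03 for Ifng. Ccl3 had 332 and 299 CPM in double-positive cells of the knockout mice and 103 and 33.7 in those of the control mice, and 324 and 308 CPM in other CD8 T cells of the knockout mice and 357 and 429 in those of the control mice, where both control mice were higher.

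Among heat-shock genes it was 1.98 for Dnajb1, 1.86 for Hspa1b, 1.48 for Hspa1a, 1.27 for Hsph1 and 0.78 for Dnaja1. Among early-response genes it was 1.35 for Dusp5, 1.34 for Nfkbid, 1.04 for Dusp2, 0.94 for Nr4a2, 0.90 for Nr4a1, 0.85 for Ier2 and 0.72 for Junb. It was 1.25 for Cxcr6, 1.21 for Rgs1, 1.19 for Id2 and 0.96 for Il7r.

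For Cish it was 2.28, with 160.2 and 143 CPM in double-positive cells of the knockout mice and 27.1 and 44.9 in those of the control mice. For Cxcl10 it was 5.50, a fitted value that rests on 2 and 0 UMIs in the double-positive cells of the control mice. Of Fn1, Lyz2 and Ccrl2, which fell in the genotype comparison, it was -3.78 for Fn1, with 0 and 2 UMIs in the double-positive cells of the knockout mice, -2.18 for Lyz2 and -1.97 for Ccrl2. Leaving out 1 mouse in turn ended at least once every one of these calls other than those of Ccl5 and Lyz2. Without the largest clone of each mouse both of those missed the threshold, at 1.63 for Ccl5 and -1.76 for Lyz2 (adjusted p = 0.72 and 0.91).

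Cells that met the rule but for the receptor beta row numbered 12 in knockout mouse 1 and 24 in knockout mouse 2, more than the 1 and 2 in the control mice. They entered none of the comparisons.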

How the results depend on the processing

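The shares of double-positive cells kept the direction of their difference under each alternative tried, with p never under the 0.33 that 4 mice allow. The knockout minus control difference in the probability of sharing a clone, -0.329 percentage points, turned to 0.593 without doublets, 0.552 with 2 UMIs of each gene and 1.501 at 2000 UMIs, and ran from -1.65 to 0.986 as mice were left out. The difference in the share in expanded clones was 0 at 1000 UMIs, where few cells were left.

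The 287 genes of the genotype comparison became 163 with DESeq2, 658 with no filter, 520 with 4 gates in 1 fit, 140 without the largest clones, 151 in cells with no Lyz2 or Cd79a UMI (107 higher, 44 lower) and 141 in expanded clones. A replicate block on mouse numbers gave 93 (40 higher, 53 lower); the numbers only name the mice (correlation of deviations 0.016). Against PD-1+ TCF-1- cells, 36 became 115 with DESeq2, 335 with no filter, 84 at 50 CPM, 2 with no replicate block, and 9 to 34 as mice were left out. Against PD-1- TCF-1+ cells, 1053 became 630 to 815 as mice were left out. Against all other CD8 T cells, 225 became 125 with DESeq2, 404 with no filter, 128 at 50 CPM and 5 with no replicate block. The 51 of the interaction became 31 with DESeq2, 131 with no filter, 30 at 50 CPM, 90 without doublets, 27 without the largest clones, 93 in cells with no Lyz2 or Cd79a UMI, and 3 to 75 as mice were left out. The cause of these moves was not tested.

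Of the named genes' values under alternatives, 3163 kept direction and side of the threshold, 719 kept direction only and 5 reversed: in the genotype comparison Ier3 (0.22) and Tyrobp (0.037) without doublets, and Fcer1g (0.49) and Tyrobp (1.505) in cells with no Lyz2 or Cd79a UMI; in the interaction Ccrl2 (0.063) without doublets. The settings on Lyz2 and Cd79a, on expanded clones, on equal cell numbers and, for shares, on the largest clones were chosen after seeing the data. Gene fits at 1000 and 2000 UMIs, and the shared-clone probability at 1000, were not run, since fewer than 10 double-positive cells were left in a mouse. The 39 and 23 double-positive cells of the control mice limit the precision of every genotype value.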
